A study of Mus musculus with 2 samples.

Results

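The genes described here copy the genome during S phase: they license replication origins, unwind DNA, load the sliding clamp, polymerise DNA, mature the lagging strand, supply deoxynucleotides and reassemble chromatin behind the fork. The 42 genes were taken by symbol from a list of replication factors with no threshold on their values, although the list was drawn up with earlier results of these data known, and all 42 were found among the 24421 genes of both tables. The question was whether these genes differed between Th1 cells labelled as having and as lacking Chi3l1, a chitinase-like protein without chitinase activity. RNA was sequenced from T helper 1 (Th1) cells, the interferon gamma producing class of CD4 T cell, made in culture from naive CD4 T cells of C57BL/6J mice. The wild type (WT) sample carried Chi3l1+/+ and the Chi3l1 KO sample Chi3l1-/-, a disruption present in the whole animal and not in T cells alone. In the study's methods, naive cells were cultured on plate-bound antibodies to CD3 and CD28 with IL-12, IL-2 and an antibody to IL-4, and mice were a few weeks old. The culture time, the sex and number of mice and any pooling were not given for these samples.

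Each genotype was represented by 1 sample, so no difference below could be set against the spread between replicates, and none was tested. Values are log2(normalized count + 1), and all differences are Chi3l1 KO minus WT on that scale. Reads rebuilt from the steps of the values came to 70562636 in WT and 62883377 in KO, and intervals given as 95% are exact binomial (Clopper-Pearson) intervals from these reads, which cover counting error only. The ribosomal RNA precursor gene Rn45s took 2.83% of the normalized total in WT and 1.0% in KO. The 8 T cell and Th1 markers were all detected, with summed normalized counts of 103350 in WT and 102428 in KO, and single differences from -1.23 for Cxcr3, a chemokine receptor, to 1.32 for the Th1 cytokine gene Ifng, at 11.72 in WT and 13.04 in KO. All 4 B cell markers were higher in KO, with sums of 847 and 1560, whereas sums were 812 and 807 for the 2 CD8 T cell markers, 16.4 and 14.4 for the 2 NK cell markers and 359 and 284 for the 9 myeloid markers, of which 1 was at 0 in WT and 4 in KO. The part of other cell types in the differences was not tested. The targeted gene, listed under its symbol Chil1, went against the label: it had 1 read in WT and 103 in the library labelled Chi3l1 KO, with values of 0.94 and 6.66. Whether those reads came from exons left in the disrupted allele, or whether the labels were exchanged, cannot be told from values by gene. Neither was tested, and each direction below is that of the library labelled KO.

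Before S phase, the origin recognition complex (ORC), Cdc6 and Cdt1 place the MCM2-7 ring on DNA, and Cdc45 and the GINS tetramer then turn it into the active helicase. Behind it, replication protein A (RPA) covers single strands, DNA polymerase alpha-primase makes primers, replication factor C (RFC) loads the clamp PCNA, and polymerases delta and epsilon extend the strands. T cells activated through their receptor divide rapidly, and E2F transcription factors, held back by retinoblastoma proteins until late G1, drive many of these genes together. In RNA from a whole culture, fewer cells in S phase and less of a transcript per S phase cell cannot be told apart.

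Many S phase genes are known to carry E2F sites in their promoters, and the windows around their start sites were searched for such letters. The E2F-type motif TTTNNCGC, searched on both strands (GCGNNAAA on the reverse) in RefSeq windows of build GRCm38.p6 from 250 bases before to 50 bases after the transcription start, was present in 14 of the 34 replication genes with a window (41.2%). It was present in 5.93% of all 27025 genes with a window and in 10.6% of the 7289 of them in the same range of level. The 68 other genes of the replication pathway had it in 17 of 55 windows (30.9%), and 29 mitosis genes in 1 of 24 (4.17%). CCAAT, searched with its reverse ATTGG, was present in 22 of 34 (64.7%), beside 41.1% of all windows, 47.3% of those of the other replication genes and 79.2% of those of the mitosis genes. The stretches below belong to 3 subunits of the MCM ring, to the licensing gene Orc1 and to Gins3, and were chosen because they carry the motif before the start site while their genes span the lowest to the highest difference. They are written 5′ to 3′ on the gene's strand, with motif letters in capitals and overlapping motifs joined. The Mcm6 stretch (chr1:128359720-128359840, minus strand) holds 3 motifs, the Mcm5 stretch (chr8:75109331-75109392, plus strand) 2, and those of Mcm7 (chr5:138172016-138172073, minus strand), Orc1 (chr4:108579402-108579453, plus strand) and Gins3 (chr8:95633493-95633550, plus strand) 1 each.
Mcm6: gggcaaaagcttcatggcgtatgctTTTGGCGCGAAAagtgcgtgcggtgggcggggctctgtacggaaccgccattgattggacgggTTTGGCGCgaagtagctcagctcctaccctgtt
Mcm5: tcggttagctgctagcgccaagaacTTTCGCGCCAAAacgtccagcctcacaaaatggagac
Mcm7: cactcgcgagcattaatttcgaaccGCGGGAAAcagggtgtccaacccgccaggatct
Orc1: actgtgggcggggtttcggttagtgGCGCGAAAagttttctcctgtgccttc
Gins3: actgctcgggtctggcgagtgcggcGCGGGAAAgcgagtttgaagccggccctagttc

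Genes with the motif lay on both sides of 0. The 14 genes with it had a median difference of -0.13, and 10 of them were lower in KO, while the 20 genes without it had a median of 0.02, with 10 lower. Both the lowest gene, Mcm6, and the highest, Gins3, carried it, and E2f1, the next lowest after Mcm6, had no match in its window. A match is a run of letters and not a measured binding site.

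As a set, the replication genes were close to level between the genotypes. Their median difference was -0.04, with quartiles of -0.29 and 0.32, beside a median of 0.003 and quartiles of -0.25 and 0.24 for the 9663 genes in the same range of mean value, 7.14 to 14.69. The lowest of the set, Mcm6 at -0.90, lay below the 5th percentile of those genes (-0.67), and the highest, Gins3 at 0.58, lay within their 95th (0.61). The standard deviation over genes was 0.37 in the set and 0.41 in the range. In KO 23 genes were lower and 19 higher (54.8% lower), where 49.6% of the genes in the range were lower. Scaling by the total without Rn45s left 15 of 42 lower, with 35.3% of the range lower, and quantile normalization left 17 (40.5%), with 47.8% of the range lower. With the trend of differences with GC content removed, 25 (59.5%) were lower, with 48.9% of the range lower.

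At least 1.5-fold lower in KO (log2 of 0.585 or more) were 4 genes, Mcm6, E2f1, Cdt1 and Pold1, or 9.52% of the set, beside 7.26% of the genes in the range. None of the 42 was at least 1.5-fold higher, where 5.66% of the range was, and none changed at least 2-fold, where 2.16% of the range and 10.5% of all genes did. Pold1 at -0.61 was just inside the 1.5-fold limit and Gins3 at 0.58 just outside it. These shares describe no more than these 2 libraries. The range lies lower in level, with a median mean value of 10.43 beside 12.34 for the set. At a mean value of 13 or more, 3 of 15 set genes were at least 1.5-fold lower. In the range, 68 of 1003 were that much lower there and 8 higher. At 11 to 13, 1 of 15 set genes was lower, beside 136 of 2778 lower and 73 higher. Under 11, 0 of 12 were lower, beside 498 of 5882 lower and 466 higher. Of the 209 range genes changed at least 2-fold, 187 were under 11. In summed normalized counts the set went from 323136 in WT to 281735 in KO, a log2 ratio of -0.20, while its share of the normalized total was 0.472% and 0.463%. The sum is weighted by the abundant genes, which were mostly lower, as described below.

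**Figure D1:**
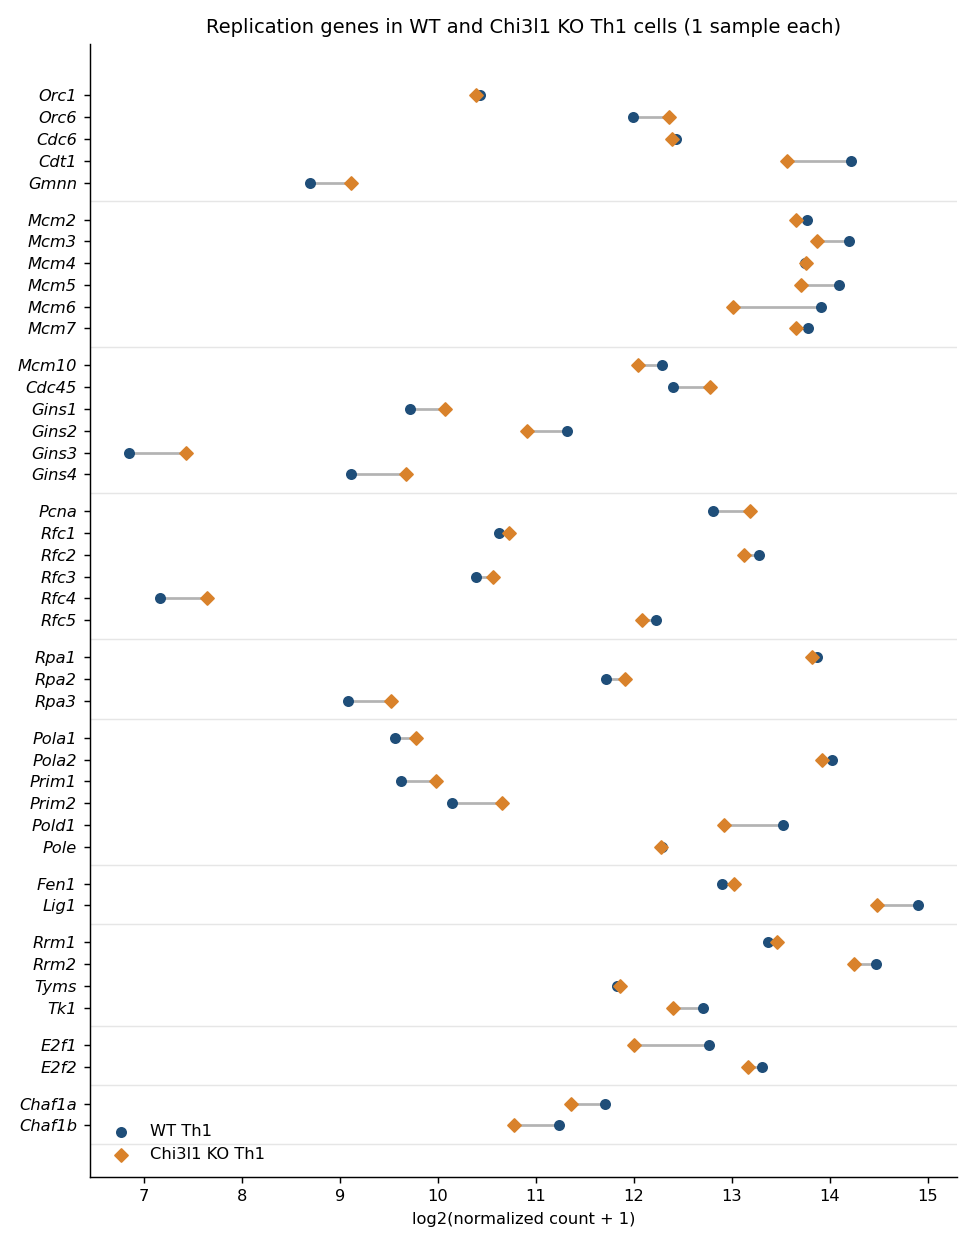
Values of the 42 replication genes in the 2 Th1 samples, as log2(normalized count + 1) on the x axis, 1 row a gene and grouped by role from origin licensing at the top to chromatin assembly at the bottom. Circles are WT and diamonds Chi3l1 KO, with 1 sample each; the widest gap with KO on the left is Mcm6 (13.91 and 13.01), and the widest with KO on the right is Gins3 (6.85 and 7.43).

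Per kilobase of transcript, the levels of the genes spanned a wide range that was largely kept between the samples. Ribonucleotide reductase subunit Rrm2 was the highest in both, at 10369 normalized counts per kb in WT and 8878 in KO, followed by the DNA ligase Lig1 at 9639 and 7204. Gins3 was the lowest in both, at 45.4 and 68.1, after Rfc4 at 111.5 and 156 (normalized counts per kb). The ratio of highest to lowest was 228 in WT and 130 in KO. Between these ends several genes changed place: Mcm6 went from rank 12 to 20, Pcna from 8 to 4 and E2f1 from 18 to 23 of 42. These levels use the longest annotated transcript, which may not be the one expressed, and with 1 sample each the order of neighbours has no spread to be judged against.

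Origin licensing held genes that differed in both directions. Cdt1, the loader that brings MCM2-7 to origins, was 14.22 in WT and 13.57 in KO, a difference of -0.65 (95% -0.68 to -0.62). Geminin (Gmnn), the inhibitor that binds Cdt1 and blocks relicensing, was 8.70 and 9.12, a difference of 0.42 (95% 0.23 to 0.60). The Cdt1 transcript had 58.8% GC, and with the GC trend removed its difference was -0.32, under 1.5-fold, and that of Gmnn 0.37; of the 201 genes like Cdt1 in level and GC content 8.96% were as low. Cdt1 was the far more abundant transcript of the pair per kb in both samples (8693 against 368 normalized counts per kb in WT, 5544 against 491 in KO). Cdc6, the ATPase that works with Cdt1, was 12.43 and 12.40, a difference of -0.04 whose interval included 0 (95% -0.09 to 0.02).

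The ORC subunits were mostly higher in KO. Orc1, the large ATPase subunit whose protein is cell cycle regulated, was 10.43 and 10.39, a difference of -0.04 (95% -0.15 to 0.07). Orc6, the smallest subunit, was 11.99 and 12.36, a difference of 0.37 (95% 0.31 to 0.43). The remaining ORC subunits were higher as well, Orc3 by 0.28, Orc5 by 0.48, Orc2 by 0.49 and Orc4 by 0.57. The whole complex had a median of 0.42, with 5 of 6 subunits higher, or 0.26 and 5 of 6 with the GC trend removed. The median GC content of its transcripts was 43.8%. Of genes like each subunit in level and GC content, 35.3% were as high as Orc3, 18.4% as Orc5, 16.9% as Orc6, 10.6% as Orc2 and 3.08% as Orc4. Orc2 shares 29.8% of its exon bases with Nif3l1 on the other strand. Orc1 differed from the median of its partners by -0.51. Its share of the ORC signal per kb was 7.73% in WT and 5.89% in KO.

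The MCM2-7 ring, which is built from 1 copy of each subunit, differed unequally across its subunits. In KO 5 of 6 subunits were lower, in the order Mcm6, Mcm5, Mcm3, Mcm7 and Mcm2, and the interval of Mcm4 included 0; under quantile normalization and under scaling by the total without Rn45s, 3 of 6 were lower, as Mcm2 and Mcm7 turned to just above 0. Mcm6 was 13.91 in WT and 13.01 in KO, a difference of -0.90 (95% -0.94 to -0.86), or 1.87-fold lower, from 15845 and 8509 reads. Mcm5 was 14.10 and 13.70 (-0.39), Mcm3 14.20 and 13.87 (-0.32), Mcm7 13.78 and 13.66 (-0.12), Mcm2 13.77 and 13.66 (-0.12) and Mcm4 13.75 and 13.75 (0.003). All 6 had a mean value of 13 or more, where 65.1% of the genes in the range were lower. Of the 500 genes nearest in level, 49.0% were as low as Mcm2, 47.2% as Mcm7, 26.2% as Mcm3 and 18.8% as Mcm5. Per kb, Mcm6 was the lowest of the 6 subunits in both samples, at 3529 normalized counts in WT beside 3838 for the next, Mcm4, and at 1893 in KO beside 3832 for the next, Mcm2. Its share of the ring's signal per kb went from 12.8% to 8.29%, while those of Mcm2, Mcm4 and Mcm7 went from 15.02% to 16.8%, 13.9% to 16.8% and 17.2% to 19.1%.

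Mcm6 differed from the other subunits by more than any partner did, at -0.78 from their median of -0.12. Of the 500 genes nearest to it in level, 1.4% were as low, and of the 271 genes within 1.0 log2 units of its level and 2 percentage points of its GC content, 0.369% were. The Mcm6 transcript had 47.3% GC, and removing the trend of differences with GC content moved it to -1.01, the only one of the 42 then at least 2-fold changed. Over the deposited values and 6 other settings its difference lay between -1.01 and -0.76. The gene lies at chr1:128331590-128359664 on the minus strand of GRCm38 and shares no exon base with a gene on the other strand. Mcm7 also has a processed pseudogene, Gm5487, that aligns over 72.8% of its transcript at 97.7% identity, so its counts from multiple alignments are uncertain.

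Helicase activation had more genes higher than lower in KO. Cdc45, which joins the ring at firing, was 12.40 in WT and 12.78 in KO, a difference of 0.37 (95% 0.32 to 0.43). In the GINS tetramer, Gins1 was 9.71 and 10.07 (0.36), Gins3 6.85 and 7.43 (0.58) and Gins4 9.11 and 9.68 (0.56). Gins2 was the exception, at 11.32 and 10.91 (-0.42), which put it -0.98 from the median of its partners and took its share of GINS signal per kb from 34.9% to 22.8%. Gins2 shares 67.3% of its exon bases with Gse1 on the opposite strand, and since use of strand in the counting was not stated, reads of the 2 genes cannot be told apart. Gins3 had the fewest reads of the set, 118 and 177, and its interval ran from 0.24 to 0.93. Mcm10, a scaffold of the activation step, was 12.29 and 12.05 (-0.24). The group had a median of 0.37, or 0.28 with the GC trend removed, with 4 of 6 genes higher in both cases. Gins1, Gins3 and Gins4 had mean values under 11, where 3209 of 5882 range genes were higher. Of genes like each in level and GC content, 23.7% were as high as Gins1, 18.6% as Gins3, 6.33% as Cdc45 and 5.64% as Gins4. As low as Mcm10 were 13.5% and as low as Gins2 10.6%.

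The clamp and its loader had a median of 0.14, with 4 of 6 genes higher in KO, or 0.03 and 3 of 6 with the GC trend removed. Pcna, the sliding clamp, was 12.81 in WT and 13.19 in KO, a difference of 0.38 (95% 0.33 to 0.42). Of the RFC subunits, Rfc4 was 7.17 and 7.65 (0.48), Rfc3 10.39 and 10.56 (0.17) and Rfc1 10.62 and 10.73 (0.11). Rfc2 was 13.28 and 13.13 (-0.16) and Rfc5 12.23 and 12.09 (-0.14), so that the more abundant small subunits were lower and the scarce Rfc4 higher. Pcna has a pseudogene, Pcna-ps2, over 51.5% of its transcript at 99.2% identity, and its value is uncertain to that extent.

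In RPA, the trimer that covers single-stranded DNA, the difference was lowest for the most abundant subunit. The large subunit Rpa1 was 13.87 and 13.82 (-0.05), the middle subunit Rpa2 11.71 and 11.92 (0.20) and the small subunit Rpa3 9.08 and 9.53 (0.45). Rpa1 made up 52.6% of the RPA signal per kb in WT and 46.9% in KO, and Rpa3 14.4% and 18.1%. The Rpa3 transcript had 40.4% GC, and with the GC trend removed the differences of Rpa1, Rpa2 and Rpa3 were -0.11, 0.22 and 0.21. Rpa1 was above 0 under quantile normalization (0.08), scaling by the total without Rn45s (0.09) and removal of the level trend (0.07).

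Among the polymerases, the delta complex was lower in all its subunits and the epsilon complex was not. Pold1, the catalytic subunit of polymerase delta, which copies the lagging strand, was 13.52 in WT and 12.92 in KO, a difference of -0.61 (95% -0.65 to -0.57). Its partners were lower as well: Pold2 13.44 and 12.67 (-0.78), Pold4 13.22 and 12.93 (-0.29) and Pold3 11.79 and 11.62 (-0.17). The median over the 4 subunits was -0.45. Pole, the catalytic subunit of polymerase epsilon, which copies the leading strand, was 12.29 and 12.28, a difference of -0.01 (95% -0.07 to 0.05), and Pole2, Pole3 and Pole4 were higher by 0.43, 0.41 and 0.38. The delta transcripts had a median GC content of 58.0% and the epsilon transcripts 46.4%. With the GC trend removed, the medians were -0.21 and 0.22, and Pold1 and Pold2 stood at -0.17 and -0.45.

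Polymerase alpha-primase, which lays down the primers, had a median difference of 0.29, with 3 of 4 subunits higher. With the GC trend removed the median was 0.10, with 3 of 4 higher. Pola2, the accessory subunit, was 14.03 and 13.92 (-0.10), a direction that turned under quantile normalization (0.02), scaling by the total without Rn45s (0.04) and removal of the level trend (0.02) or the GC trend (0.04). The catalytic subunit Pola1 was 9.56 and 9.78 (0.21), or -0.02 with the GC trend removed. The primase subunit Prim1 was 9.63 and 9.98 (0.36) and its partner Prim2 10.14 and 10.65 (0.51). Their differences were 0.16 and 0.415 with the GC trend removed. Of genes like them in level and GC content, 30.5% were as high as Prim1 and 9.35% as Prim2. Pola2 carried 85.1% of the signal of the complex per kb in WT and 79.9% in KO.

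On the lagging strand, Lig1, which seals Okazaki fragments, was 14.90 and 14.48, a difference of -0.42 (95% -0.44 to -0.40). Fen1, the nuclease that trims them, was 12.90 and 13.03 (0.13), and 78.8% of its exon bases overlap an antisense gene. Of the genes that supply deoxynucleotides, the ribonucleotide reductase subunits Rrm1 and Rrm2 were 13.37 and 13.47 (0.09) and 14.47 and 14.25 (-0.22). Thymidylate synthase (Tyms) was 11.83 and 11.86 (0.02), with an interval that included 0 (95% -0.04 to 0.09). Thymidine kinase (Tk1), which salvages thymidine, was 12.71 and 12.40 (-0.31). None of these 4 supply genes reached 1.5-fold, and with the GC trend removed Rrm1 and Tyms turned to -0.10 and -0.08. That removal moved Tk1 to -0.12 and Rrm2 to -0.35. Of genes like them in level and GC content, 31.1% were as low as Tk1 and 14.3% as Rrm2.

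The E2F and chromatin assembly genes were lower in KO in the deposited values, though E2f2 turned with the GC trend removed. E2f1, an activator of S phase genes, was 12.77 in WT and 12.01 in KO, a difference of -0.77 (95% -0.82 to -0.71), or 1.70-fold lower. E2f2, a related activator, was 13.31 and 13.16 (-0.15); it was -0.004 under scaling by the total without Rn45s and 0.08 with the GC trend removed, and 70.0% of the 403 genes like it in level and GC content were as low. Chromatin assembly factor 1, which deposits histones on new DNA, was lower in both listed subunits. Chaf1a was 11.71 and 11.36 (-0.34) and Chaf1b 11.23 and 10.78 (-0.46), or -0.17 and -0.35 with the GC trend removed. Of genes like them in level and GC content, 25.8% were as low as Chaf1a and 9.80% as Chaf1b. Chaf1a shares 52.5% of its exon bases with Ubxn6 on the other strand. E2f1 has a transcript of 58.3% GC, and of the 397 genes like it in level and GC content 6.55% were as low, beside 2.4% of the 500 genes nearest in level alone.

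**Figure D2:**
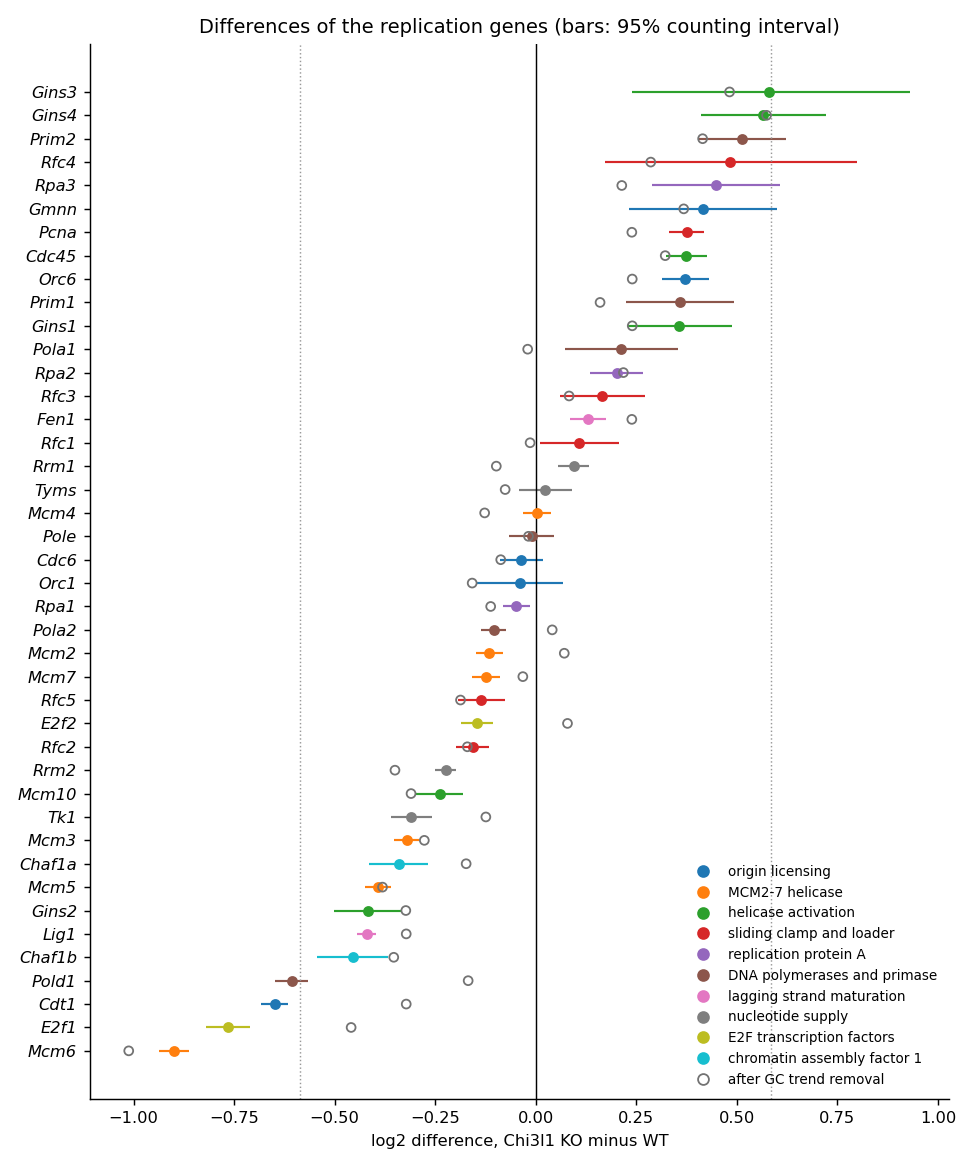
Difference of each gene (Chi3l1 KO minus WT, log2) on the x axis, sorted from the lowest at the bottom to the highest at the top, with colours for the role of the gene and bars for the 95% counting interval. Dotted lines mark 1.5-fold and open circles the difference after the trend with GC content was removed; Mcm6 moves from -0.90 to -1.01, while Pold1 moves from -0.61 to -0.17.

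**Figure D3:**
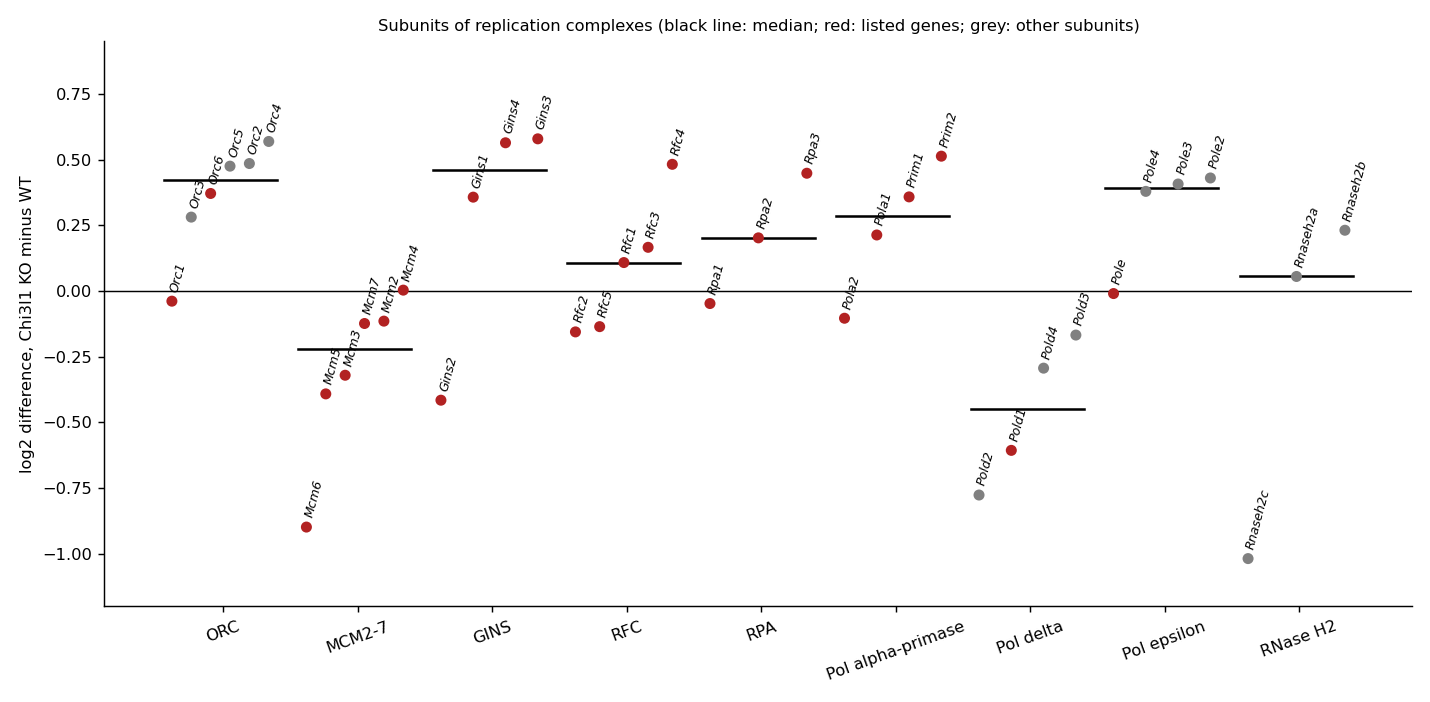
Difference of each subunit (Chi3l1 KO minus WT, log2) on the y axis for 9 complexes, with red points for the listed genes, grey points for other subunits and a black line for the median of the complex. Mcm6, Gins2 and Rnaseh2c lie far below the other subunits of their complexes, and all 4 subunits of polymerase delta lie below 0.

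The differences within the set went with properties of the transcripts. The 23 genes with a GC content under 50% had a median difference of 0.17, with 7 lower in KO, and the 19 genes at 50% or more had a median of -0.31, with 16 lower. All genes of the range showed the same relation, with medians of 0.17 and -0.16 and 29.4% and 68.8% lower in those classes. Over 20 bins of GC content, the median difference went from 0.24 at 39.4% GC to -0.46 at 61.2%. Spearman's rank correlation between difference and GC content was -0.62 over the 42 genes and -0.52 over 9308 genes of the range, as a description across genes that share the same 2 libraries.

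Level and length went with the difference more steeply in the set than in the range, though this contrast was not tested. The 12 genes with a mean value under 11 had a median of 0.39, with 1 lower, the 15 at 11 to 13 had a median of -0.04, with 9 lower, and the 15 at 13 or more a median of -0.16, with 13 lower. In the range the medians were 0.04, -0.03 and -0.11 for the same classes. The 13 genes with transcripts under 2 kb had a median of 0.37, with 11 higher, and the 29 longer ones a median of -0.12, with 21 lower, where the range had medians of -0.02 and 0.01. The parts of level and length in the differences were not tested.

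**Figure D4:**
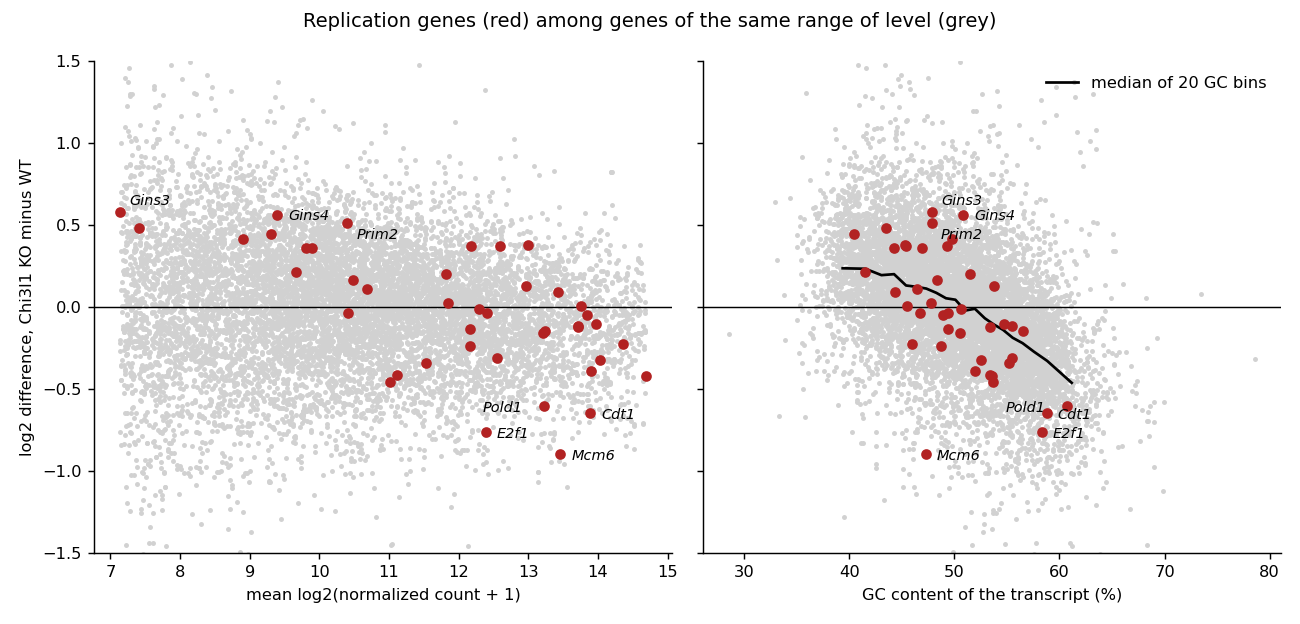
Difference (Chi3l1 KO minus WT, log2) on the y axis against mean log2(normalized count + 1) on the left and transcript GC content in percent on the right, for the 42 replication genes in red and genes of the same range of level in grey. The black line is the median in 20 bins of GC content. Measured from it, the 19 red genes at 50% GC or more had a median of -0.17, with 13 below it. E2f1 lay at -0.46 from the line, Cdt1 at -0.32 and Pold1 at -0.17, while Mcm6, at 47.3% GC, lay at -1.01. Beyond 1.5 on the y axis, 41 grey genes are not shown.

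The other genes of the replication pathway, a list of 68, had a median difference of 0.09, with 28 lower and 40 higher. With the GC trend removed, their median was -0.02 and 36 were lower. At least 1.5-fold lower were 2 of the 68 and at least 1.5-fold higher 3, beside 7.26% and 5.66% of the genes in the range of the set. Rnaseh2c, a subunit of the nuclease that removes ribonucleotides from DNA, was 10.88 in WT and 9.86 in KO (-1.02), while its partners Rnaseh2a and Rnaseh2b were at 0.06 and 0.23. The next lowest were Pold2 at -0.78, the repressor E2f4 at -0.58, the alternative clamp loader subunit Chtf18 at -0.55 and Uhrf1, which couples DNA methylation to replication, at -0.46. The highest were the fork protection factor Tipin at 0.70 (8.42 and 9.12), the ribonucleotide reductase subunit Rrm2b at 0.66 (6.90 and 7.56), the CTP synthase Ctps at 0.64 (11.02 and 11.65), Orc4 at 0.57 and the histone chaperone Asf1a at 0.51. Of these 10 genes, Rnaseh2c, Chtf18, Rrm2b, Orc4 and Asf1a share exon bases with a gene on the other strand.

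Genes of the neighbouring cell cycle phases also had medians close to 0. The 29 mitosis genes had a median of -0.02, from Foxm1 at -0.36 to Mad2l1 at 0.51, with 15 lower. The 11 G1 cyclins, kinases and inhibitors had a median of -0.02, from Ccnd1 at -1.07, with 66 and 31 reads, to Cdkn2a, with 0 reads in WT and 5 in KO. The summed normalized counts of the mitosis genes gave a log2 ratio of 0.04 and those of the G1 genes one of -0.44. Sums gave -0.20 for the replication genes, -0.08 for all genes of the range and -0.17 for all genes. For range genes with a mean value of 13 or more the ratio was -0.12. The G1 sums, 236634 in WT and 174966 in KO, were mostly Ccnd3, with 185604 and 119522 reads and a difference of -0.64.

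Reads shared with other genes touched part of the set. In the annotation 13 of the 42 genes share exon bases with a gene on the other strand, 3 of them (Chaf1a, Fen1 and Gins2) over more than 50% of their exon bases. Of the 29 genes without such overlap 14 were lower, with a median of 0.003, and Mcm6, E2f1, Cdt1 and Pold1 are all among these 29. The counting interval lay below 0 for 20 of the 42 genes, above 0 for 17 and included 0 for 5. The matching counts for genes of the range are not given, so these counts do not set the replication genes apart. The interval holds no error between cultures or mice.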

How the data were processed

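RNA was extracted with TRIzol, poly(A) libraries were made with the SENSE mRNA-Seq kit and sequenced as paired 100 base reads. By the submitters' processing notes, reads were aligned with TopHat to mm10 and counted with edgeR; counts took in unique and multiple alignments, and the annotation, settings and use of strand are not given in the sources used here. The deposited values of each sample are taken as log2(normalized count + 1), a unit inferred from the values: all 2866 WT and 2839 KO values up to 20 reads lay within 0.1 of a whole read. 1 read was worth 0.970 in WT and 0.969 in KO.

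The deposited log2 value of WT was subtracted from that of KO for each gene. With 1 sample per genotype no test was made and no p-value is given. Reads were rebuilt from the steps, and exact binomial intervals use them. Medians and counts of the set were set beside genes in its range of mean value and, for single genes, the 500 nearest in level. GC content and length come from the longest transcript of GENCODE M21 (GRCm38). Promoter windows are those of RefSeq, with 34 of 42 genes matched by symbol. Scripts were tested on simulated data. Named were all 42 genes, pathway genes at least 1.5-fold changed with a mean log2 value of at least 5 with the 5 highest and 5 lowest, and the extremes of the mitosis and G1 lists. Members, lists and complexes were chosen with earlier results of these data known. Alternatives were other scalings, a pseudocount of 0.1, trends with GC content or level removed, a 1.3-fold limit and a floor of 8. Analyses used Python 3.11.15, numpy 2.4.6, pandas 2.3.3 and scipy 1.17.1. Naive T cells of the study were not analysed here.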

Additional observations from a re-analysis of the deposited data

How the results depend on the processing

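The median difference of -0.04 lay between -0.05 and 0.04 under the other settings except scaling by the total without Rn45s, which moved it to 0.10 and left 15 genes lower, 2 at least 1.5-fold lower and 5 at least 1.5-fold higher (4.76% and 11.9%, beside 3.83% and 11.2% of the range); that scaling moved the median of all genes above 0 to 0.14. Its sign also changed under quantile normalization (0.04), removal of the level trend (0.04) and without genes that share exon bases on the other strand (0.003, 14 lower, chosen after seeing the data). The 4 genes at least 1.5-fold lower became 2 under quantile normalization (4.76%, beside 7.02% of the range) and 2 with the level trend removed. They became 1 with the GC trend removed (2.38%, beside 4.43% of the range) and 8 at 1.3-fold. The count at least 1.5-fold higher became 1 with median-ratio scaling (2.38%, beside 5.84% of the range) and 6 at 1.3-fold. With the GC trend removed, 1 gene, Mcm6, was at least 2-fold changed. Under the deposited values and 6 settings, 14 genes were lower and 14 higher throughout. No share of the range is given for these counts, for removal of the level trend or for the 1.3-fold limit. The causes of these moves were not tested. No paired analysis was possible because each genotype has 1 sample, which also allowed no sample to be left out. With 118 reads or more for each gene, depth limits the scarce Gins3 and Rfc4 most.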
